A study of Mus musculus with 3 samples.

Results

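Genes that hold the cell cycle back in the Rb, p16/ARF and p53 pathways were followed across 3 lines of mouse OP9 cells, with 1 array per line. The genes were Rb1, Cdkn2a, Cdkn2b, Cdkn1a, Cdkn1b, Trp53, Mdm2, Gadd45a, Btg2 and Ccng1, taken by gene symbol or older synonym from the gene table of the array. Of these 10 genes, 8 had a named probe, 1 each, among 16390 genes named on 23473 probes. All 8 had a value on all 3 arrays and a mean bright enough to be compared. Trp53 and Cdkn2b were not analysed here. The genes were chosen with their values on these arrays in view, so the levels below describe them and test nothing.

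OP9 is a stromal line. It was derived from newborn calvaria, the mice being B6C3Fe-a/a-Csf1op/Csf1op, so all 3 lines share the op mutation of the Csf1 gene. OP9 cells serve as a feeder layer on which blood cells develop. The control line was OP9 as it is, OP9-GFP cells expressed green fluorescent protein, and OP9-DL cells expressed GFP and the Notch ligand Delta-like 1. No line was treated, and all were kept in aMEM with 20% FBS, per the labels. The sources used here do not say whether each modified line is a clone or a mixed population, or how dense the cultures were at harvest. With 1 array per line no difference has a replicate check, no error or p-value can be given, and the effect of a transgene cannot be told apart from any other difference between the cultures.

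Rb1 encodes the retinoblastoma protein, which binds E2F transcription factors and keeps the genes of DNA replication off until cyclin-dependent kinases (CDKs) phosphorylate it. The p16 protein from Cdkn2a blocks the kinases that act on Rb first, while p21 from Cdkn1a and p27 from Cdkn1b block those that act later. ARF, also made from Cdkn2a in another reading frame, binds Mdm2, the ubiquitin ligase that marks p53 for destruction, so ARF links both pathways. The p53 protein in turn induces Cdkn1a, Mdm2, Ccng1, Btg2 and Gadd45a, and Mdm2 thereby closes a negative feedback loop.

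The 4 p53 targets with their lowest reading in OP9-GFP, Cdkn1a, Mdm2, Ccng1 and Gadd45a, are shown first by the 250 bases before their starts, since p53 is known to bind DNA as pairs of a 10-base word. Cdkn2a is shown at both of its starts, which lie 12427 bases apart, the upstream of which gives ARF and the downstream p16. The sequences are from RefSeq on GRCm38.p6, 5′ to 3′ on the gene's strand, and capitals mark matches to the p53 decamer or to an E2F word.
Cdkn1a, chr17:29090729-29090978, plus strand: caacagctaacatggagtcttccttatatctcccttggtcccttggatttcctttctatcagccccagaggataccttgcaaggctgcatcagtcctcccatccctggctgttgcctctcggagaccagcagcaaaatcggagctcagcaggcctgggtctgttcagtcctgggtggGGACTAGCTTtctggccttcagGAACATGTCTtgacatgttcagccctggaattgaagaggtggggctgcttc
Mdm2, chr10:117710759-117711008, minus strand: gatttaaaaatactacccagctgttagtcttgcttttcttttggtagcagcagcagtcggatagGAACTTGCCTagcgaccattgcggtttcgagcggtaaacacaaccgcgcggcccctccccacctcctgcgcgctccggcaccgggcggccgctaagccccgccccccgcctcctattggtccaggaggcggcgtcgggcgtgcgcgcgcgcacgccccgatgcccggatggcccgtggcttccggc
Ccng1, chr11:40755287-40755536, minus strand: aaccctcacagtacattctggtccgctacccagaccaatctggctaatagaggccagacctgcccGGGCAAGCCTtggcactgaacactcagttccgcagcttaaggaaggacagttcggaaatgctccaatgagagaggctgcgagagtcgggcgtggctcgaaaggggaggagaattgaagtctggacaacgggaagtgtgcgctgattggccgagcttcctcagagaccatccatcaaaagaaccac
Gadd45a, chr6:67037408-67037657, minus strand: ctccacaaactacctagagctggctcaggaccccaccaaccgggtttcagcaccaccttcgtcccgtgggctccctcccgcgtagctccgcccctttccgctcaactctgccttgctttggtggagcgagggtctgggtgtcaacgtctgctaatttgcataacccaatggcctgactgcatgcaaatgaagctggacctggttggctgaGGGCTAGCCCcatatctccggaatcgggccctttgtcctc
Cdkn2a, chr4:89294620-89294869, minus strand: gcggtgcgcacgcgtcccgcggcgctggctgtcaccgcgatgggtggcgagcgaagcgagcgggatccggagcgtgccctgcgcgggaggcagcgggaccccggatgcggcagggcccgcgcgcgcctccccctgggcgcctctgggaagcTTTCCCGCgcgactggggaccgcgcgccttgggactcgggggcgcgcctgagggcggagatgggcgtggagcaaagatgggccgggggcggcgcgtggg
Cdkn2a, chr4:89282193-89282442, minus strand: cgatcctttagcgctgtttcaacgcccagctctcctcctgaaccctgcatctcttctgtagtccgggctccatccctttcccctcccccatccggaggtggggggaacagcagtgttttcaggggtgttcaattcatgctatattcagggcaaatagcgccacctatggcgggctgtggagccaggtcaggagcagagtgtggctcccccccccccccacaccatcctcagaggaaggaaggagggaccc

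The p53 decamer, searched by its consensus on both strands, was present in the windows of 4 of the 7 measured genes that had a window: Cdkn1a, Mdm2, Ccng1 and Gadd45a. Cdkn1a held it at 2 places, from base -73 to -64 and from base -51 to -42 before its upstream start, the second of these being GAACATGTCT. Mdm2 held GAACTTGCCT from base -186 to -177, Ccng1 GGGCAAGCCT from base -185 to -176, and Gadd45a GGGCTAGCCC from base -40 to -31. The window before the downstream start of Cdkn1a, 2790 bases away, and that of Btg2, also a p53 target, held no decamer. Counted by window, 4 of the 9 windows of measured genes held the decamer. Of 32851 windows of the same length over the genome, 7.13% held it. A pair of decamers without a spacer, both matching in every letter, stood in none of the genes' windows and in 0.00913% of all windows. A pair with a mismatch was not counted. Directly beside GAACATGTCT in Cdkn1a stands tgacatgttc, and beside GGGCAAGCCT in Ccng1 stands agacctgccc, each off the consensus by a letter. The E2F words searched on both strands were TTTCCCGC, TTTCGCGC, TTTGGCGC and TTTGCCGC, and 1.86% of windows held any of them. TTTCCCGC stood from base -99 to -92 before the upstream start of Cdkn2a. No match of different words overlapped in the windows shown. The window before that start held 40 CpG pairs, and the window before the downstream start held 7, against a median of 6 over all windows. A match is a description of letters and shows no binding. Sequence outside these windows, within the genes or farther upstream, was not searched, so p53 sites there would be missed. Rb1 had no window in the table.

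**Figure D1:**
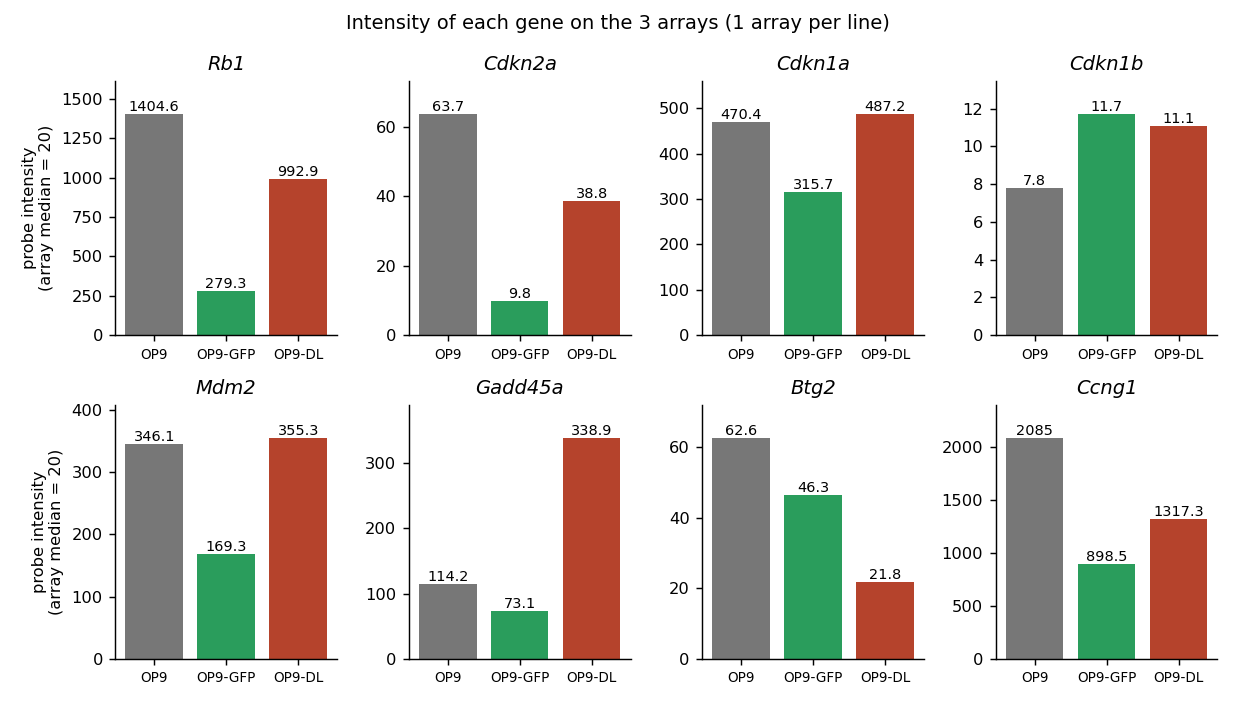
Probe intensity of each of the 8 measured genes (linear axes from 0, each gene on its own scale, array median 20) in OP9, OP9-GFP and OP9-DL, with 1 bar per array. For 6 genes the OP9-GFP bar is the lowest, with Rb1 at 279.3 and Cdkn2a at 9.8, while Btg2 is lowest on the OP9-DL array and Cdkn1b on the OP9 array.

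The intensities are the authors' values on a linear scale, in which the median probe of each array reads 20. A gene counted as higher or lower once 2 arrays differed by at least 2-fold. Of 11359 named genes compared, 18.1% spanned 2-fold or more over the 3 arrays, and so did 6 of the 8 growth brakes. On the OP9-GFP array 6 of the 8 had their lowest reading, as did 28.1% of all genes. In 3 of the 8, Rb1, Cdkn2a and Mdm2, the OP9-GFP reading was at least 2-fold below both others, as it was for 0.898% of all genes.

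The Rb1 probe read 1404.6 in OP9, 279.3 in OP9-GFP and 992.9 in OP9-DL cells, as intensities. It was 5.03-fold lower in OP9-GFP than in OP9 and 3.55-fold higher in OP9-DL than in OP9-GFP. OP9 and OP9-DL differed by 1.41-fold, so the OP9-GFP reading alone stood apart. Between OP9-GFP and OP9, 0.951% of all genes had a lower log2 difference than Rb1, and between OP9-DL and OP9-GFP 99.5% did.

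Cdkn2a read 63.7 in OP9, 9.8 in OP9-GFP and 38.8 in OP9-DL cells. This gene had the widest span of the 8 genes, 6.50-fold lower in OP9-GFP than in OP9 and 3.96-fold higher in OP9-DL than in OP9-GFP. OP9-DL lay 1.64-fold below OP9. The reading of 9.8 was close to the brightness limit of 6.13, and with a constant of 2 added to all intensities the log2 difference of OP9-GFP against OP9 went from -2.70 to -2.48. The gene table does not say whether the probe reads the ARF transcript, the p16 transcript or both, and Cdkn2b is a close relative in sequence that a probe could share, so the value cannot be assigned to p16 or to ARF.

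The gene order around Cdkn2a shows whether its neighbours differed too. The 10 measured neighbours, 5 on each side, lay between -0.11 and 0.49 in the log2 difference of OP9-GFP against OP9, with a median of 0.19. Of the 10, 0 were past 2-fold, beside 11.8% of all genes. Mtap, the nearest on one side and a gene of methionine salvage, read 331.8, 308.0 and 393.8 in OP9, OP9-GFP and OP9-DL. Dmrta1, the nearest on the other side and a transcription factor gene, read 40, 48.5 and 38.9. Between OP9-DL and OP9-GFP the neighbours ran from -0.33 to 0.35. Neighbours on the interferon side, such as Ifna2 and Ifna13, belong to a family of near-identical genes and are uncertain. Ifnb1, Ifna2 and Ifne read only 6.4, 7.1 and 8.6 in OP9, close to the brightness limit of 6.13, where a lower level could hardly show.

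**Figure D2:**
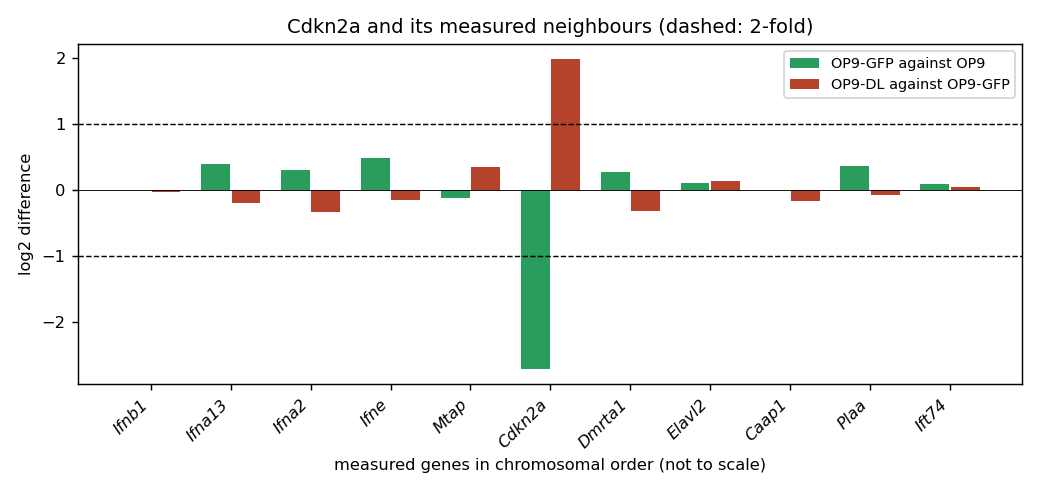
Log2 difference of OP9-GFP against OP9 (green) and of OP9-DL against OP9-GFP (red) for Cdkn2a and the 5 nearest measured genes on each side, in the gene order of GRCm38.p6 and not to scale. Cdkn2a stands at -2.70 and 1.99, while the neighbours stay inside the dashed 2-fold lines.

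The 2 measured inhibitors that act on the later kinases differed less. Cdkn1a, which encodes p21, read 470.4 in OP9, 315.7 in OP9-GFP and 487.2 in OP9-DL. It was 1.49-fold lower in OP9-GFP than in OP9 and 1.54-fold higher in OP9-DL than in OP9-GFP, both inside 2-fold, and OP9 and OP9-DL were within 1.04-fold of each other. Cdkn1b, which encodes p27, read 7.8, 11.7 and 11.1 in OP9, OP9-GFP and OP9-DL. It was the single gene of the 8 with its highest reading on the OP9-GFP array, 1.5-fold above OP9, and all its readings were dim. The p27 level is set largely by protein breakdown, which an array does not measure.

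Mdm2 and Ccng1, a p53 target that encodes cyclin G1 and recruits a phosphatase to Mdm2, were lower in OP9-GFP than in OP9. Mdm2 read 346.1 in OP9, 169.3 in OP9-GFP and 355.3 in OP9-DL, 2.04-fold lower in OP9-GFP than in OP9 and 2.10-fold higher in OP9-DL than in OP9-GFP. These differences lay just past 2-fold, and scaling the arrays to their 75th percentile brought the first to -0.97 on the log2 scale, inside 2-fold. Ccng1 read 2085 in OP9, 898.5 in OP9-GFP and 1317.3 in OP9-DL. It was 2.32-fold lower in OP9-GFP than in OP9, and the difference between OP9-DL and OP9-GFP, 1.47-fold, was inside 2-fold.

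Gadd45a and Btg2 set the OP9-DL array apart, in opposite directions. Gadd45a, a growth arrest gene induced by DNA damage and other stresses, read 114.2 in OP9, 73.1 in OP9-GFP and 338.9 in OP9-DL. It was 4.64-fold higher in OP9-DL than in OP9-GFP and 2.97-fold higher than in OP9, while OP9-GFP and OP9 differed by 1.56-fold. Btg2, which binds the deadenylase that shortens mRNA tails and slows the entry into S phase, read 62.6, 46.3 and 21.8. It was 2.12-fold lower in OP9-DL than in OP9-GFP and 2.87-fold lower than in OP9. Among all genes 0.995% stood 2-fold or more above both other lines in OP9-DL, as Gadd45a did, and 1.72% stood as far below both, as Btg2 did.

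By comparison, 4 of the 8 genes were at least 2-fold lower in OP9-GFP than in OP9 and 0 were higher, beside 11.8% of all genes past 2-fold in either direction and 6.81% lower. The median log2 difference of the 8 was -0.84, against 0.02 over all genes. In OP9-DL against OP9-GFP, 4 were higher and 1 was lower, beside 5.33% of all genes past 2-fold, 2.25% higher and 3.07% lower, with a median of 0.85 against -0.03. In OP9-DL against OP9, 1 was higher and 1 lower, beside 11.7% of all genes past 2-fold, 4.41% higher and 7.29% lower, with a median of -0.23 against 0.00. The first and second comparison share the OP9-GFP array, so a low reading on it enters both with opposite sign, and they do not support each other. Among 125 genes with 2 compared probes, the log2 differences from the 2 probes differed by a median of 0.42 in OP9-GFP against OP9 and 0.32 in OP9-DL against OP9-GFP, and each growth brake had only 1 probe.

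**Figure D3:**
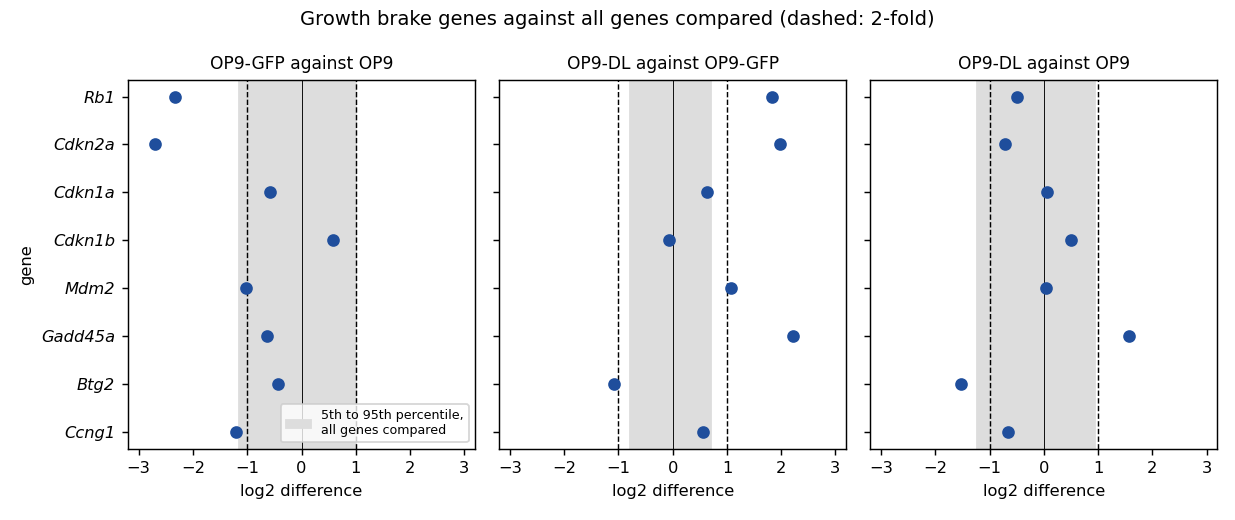
Log2 difference of each growth brake gene (dots) in the 3 comparisons, with the 5th to 95th percentile of all 11359 genes compared in grey and 2-fold as dashed lines. Rb1 and Cdkn2a lie outside the grey band on opposite sides in the first and second panel, which share the OP9-GFP array. Ccng1 lies outside it in the first panel, Mdm2 in the second, and Gadd45a and Btg2 in the second and the last.

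The Rb side of the pathway was followed further through its partners and targets. Of 15 Rb family and E2F genes compared, 4 were at least 2-fold higher in OP9-GFP than in OP9 and 0 lower, beside 5.04% of all genes higher, with a median of 0.46. The Rb relatives Rbl1 (78.3, 107.5 and 97.4 in OP9, OP9-GFP and OP9-DL) and Rbl2 (112.9, 137.3 and 142.4) stayed within 2-fold, unlike Rb1. E2f1, an activating E2F, read 50.5, 118.1 and 80.0, and its dimer partner Tfdp1 read 252.9, 601.6 and 416.8. Lin9, a subunit of the complex that Rb relatives and B-Myb share, had the largest difference of this list, with 8.4, 27.2 and 24.7. The fourth gene was E2f7, at 5.4, 12.1 and 14.0. In OP9 the E2f7 reading lay under the brightness limit of 6.13 and that of Lin9 close to it. With a constant of 2 added, 3 genes of the list were at least 2-fold higher in OP9-GFP than in OP9. In OP9-DL against OP9-GFP, 0 of the 15 reached 2-fold, beside 5.33% of all genes, with a median of -0.43.

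Of 29 S phase genes that E2F drives, 11 were at least 2-fold higher in OP9-GFP than in OP9, 18 lay inside 2-fold and 0 were lower, beside 5.04% of all genes higher and 6.81% lower. The median log2 difference was 0.84, and 28 lay above 0. Mybl2, which encodes B-Myb, had the largest difference, with readings of 28.7, 102.0 and 66.1 in OP9, OP9-GFP and OP9-DL. In OP9-DL against OP9-GFP the median was -0.43, and 3 were lower and 0 higher, beside 3.07% and 2.25% of all genes. Quantile, 75th percentile and lowess scaling each left 2 of these 3 past 2-fold. The lowest was Tyms, thymidylate synthase, and Cdc45 and Tk1 were the others past 2-fold. In OP9-DL against OP9 the median of the 29 was 0.57, with 5 higher and 1 lower, beside 4.41% and 7.29% of all genes. There Mdm2 and Cdkn1a differed by 0.04 and 0.05 on the log2 scale. The other growth brakes stood at -0.50 (Rb1), -0.72 (Cdkn2a), -0.66 (Ccng1), 0.51 (Cdkn1b), 1.57 (Gadd45a) and -1.52 (Btg2). Tk1, thymidine kinase, was the single S phase gene below 0 in OP9-GFP against OP9, with 1498.2, 1200.0 and 589.2.

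Kinases and cyclins of the G1 phase had a median of 0.45 in OP9-GFP against OP9, and 1 of 10 was higher and 1 lower, beside 5.04% and 6.81% of all genes. The higher count was 3 under quantile and 75th percentile scaling and 2 under lowess scaling. Ccne2, cyclin E2, read 142.3, 417.4 and 301.9 in OP9, OP9-GFP and OP9-DL, and Ccnd2, cyclin D2, read 3358.9, 1421.6 and 2032.0. Cdk4, a kinase that p16 blocks, read 1418.8, 1612.5 and 2398.4, and Cdk6, the other, 30.2, 38.1 and 36.7. The 5 other CDK inhibitor genes and their partners had a median of -0.34 in OP9-GFP against OP9. Cdkn1c was the only one of them past 2-fold there, beside 11.8% of all genes. It encodes p57 and read 41.8, 4.7 and 3.2, low on both arrays of GFP-expressing cells rather than on OP9-GFP alone. Both low readings lay under the brightness limit of 6.13, so the size of the difference is uncertain. Cdkn2c, which encodes p18, an inhibitor of the same family as p16, read 208.4, 164.6 and 175.9.

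Genes listed as induced by p53 were mixed. Of 32 compared besides the growth brakes themselves, 7 were at least 2-fold lower in OP9-GFP than in OP9 and 2 higher, beside 6.81% and 5.04% of all genes, with a median of -0.29. Dcxr, a carbonyl reductase gene, was lowest, with 742.9, 93.7 and 195.8 in OP9, OP9-GFP and OP9-DL. Trp53inp1, which promotes arrest and death downstream of p53, read 86.3, 14.3 and 33.3. Thbs1, the angiogenesis inhibitor thrombospondin, went the other way, with 216.6, 590.6 and 172.5. In OP9-DL against OP9-GFP the readings past 2-fold were 4 higher and 3 lower of 32, beside 2.25% and 3.07% of all genes, and the median was 0.09. The lower count was 1 under 75th percentile scaling, 2 under quantile and lowess scaling and 2 with a constant of 2 added. The higher count was 3 with that constant. Dcxr and Trp53inp1 were the 2 genes of the list at least 2-fold below both others on the OP9-GFP array, as were 0.898% of all genes, and Thbs1 was the 1 gene that far above both, as were 0.863%.

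Of 21 regulators and partners of p53 compared, 0 were at least 2-fold higher in OP9-GFP than in OP9 and 1 was lower, beside 5.04% and 6.81% of all genes, with a median of -0.05 that turned to 0.01 when the arrays were scaled to their 75th percentile. The lower gene was Trp63, the p53 relative of epithelia, which read 65.5, 8.8 and 4.6 in OP9, OP9-GFP and OP9-DL. Its OP9-DL reading lay under the brightness limit of 6.13 and its OP9-GFP reading close to it. Mdm4, the partner of Mdm2, was below the brightness limit, at 3.9, 3.7 and 4.4. In OP9-DL against OP9-GFP 0 of the 21 reached 2-fold, beside 5.33% of all genes.

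Genes known to control Cdkn2a and Cdkn2b had a median of 0.07 in OP9-GFP against OP9, with 3 of 21 higher and 1 lower, beside 5.04% and 6.81% of all genes. Bmi1, a Polycomb protein that represses Cdkn2a, read 27.2 in OP9, 64.2 in OP9-GFP and 64.1 in OP9-DL. Phc2, another Polycomb gene, read 137.1, 305.6 and 186.0, and Myc 113.9, 313.2 and 351.4. Cbx7, a Polycomb repressor of Cdkn2a, was the lower gene, at 22.2, 11.0 and 17.8, and lay inside 2-fold under quantile and 75th percentile scaling and with a constant of 2 added. None of the 21 reached 2-fold in OP9-DL against OP9-GFP, beside 5.33% of all genes, with a median of -0.10.

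Of 11 genes that set the level of p27, 1 was at least 2-fold lower in OP9-GFP than in OP9, beside 6.81% of all genes, with a median of 0.07. It was Rnf123, a ubiquitin ligase for p27, with 25.4, 12.3 and 20.4 in OP9, OP9-GFP and OP9-DL, and it lay inside 2-fold under 75th percentile scaling and with a constant of 2 added. Skp2, the other ligase subunit for p27, read 242.7, 473.3 and 324.1, and passed 2-fold in OP9-GFP against OP9 under 75th percentile scaling. Foxo1, a transcription factor that induces Cdkn1b, was the 1 gene at least 2-fold higher in OP9-DL than in OP9-GFP, with 15.0, 13.3 and 26.9, beside 2.25% of all genes. That call was lost under lowess scaling and with a constant of 2 added.

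The relatives of Gadd45a, Btg2 and Ccng1 did not all follow them. Gadd45b read 185.8, 315.4 and 661.9 in OP9, OP9-GFP and OP9-DL, so that like Gadd45a it was highest in OP9-DL. Gadd45g, at 2996.9, 5851.2 and 6146.8, was highest there too, but only 1.05-fold above OP9-GFP. Btg1 read 2294.3, 1220.5 and 2114.8, lowest in OP9-GFP where Btg2 was not. Tob1, another antiproliferative gene of the Btg family, read 369.9, 137.0 and 165.3, and Ccng2, the relative of Ccng1, 96.6, 38.8 and 45. Of the 11 genes of these families, 2 were lower and 0 higher in OP9-GFP than in OP9, beside 6.81% and 5.04% of all genes, with a median of -0.19. Between OP9-DL and OP9-GFP 1 was higher in OP9-DL and 0 lower, beside 2.25% and 3.07%, and the median was 0.21. Quantile and 75th percentile scaling each put 1 of the 11 at 2-fold or more above OP9 in OP9-GFP.

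**Figure D4:**
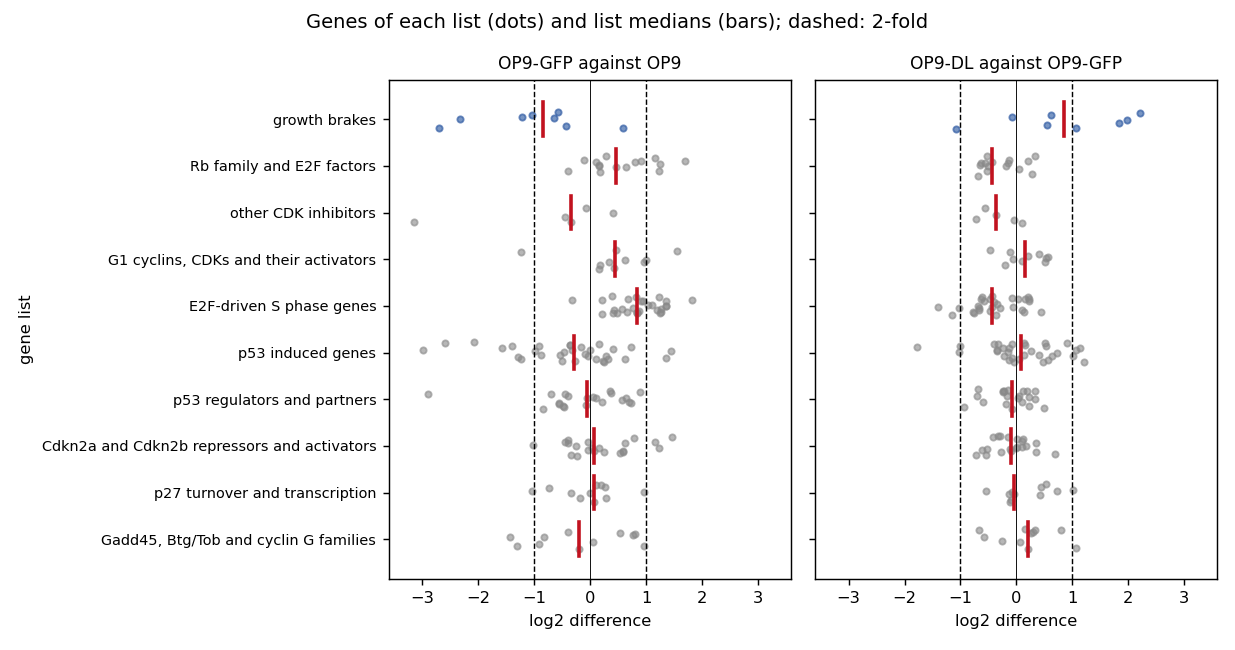
Log2 difference of every compared gene of the growth brakes (blue) and of 9 related lists (grey dots, vertical jitter for legibility) in OP9-GFP against OP9 and in OP9-DL against OP9-GFP, which share an array, with list medians as red bars and 2-fold as dashed lines. The medians are -0.84 and 0.85 for the growth brakes and 0.84 and -0.43 for the S phase genes.

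The genes whose pattern over the 3 arrays came nearest to those of Cdkn2a and Rb1 were found by the distance between their pairs of log2 differences, among 11358 other genes. For Cdkn2a they were Cideb, at a distance of 0.03, Gjb5 (0.22) and Tmem45a (0.33). Cideb read 23.0, 3.5 and 14.1 in OP9, OP9-GFP and OP9-DL, the OP9-GFP reading being under the brightness limit of 6.13. For Rb1 they were Slc22a18, at a distance of 0.05, Pqlc3 (0.25) and Lrrn3 (0.32), and Slc22a18 read 85.0, 16.3 and 57.5. Likeness over 3 arrays says nothing of shared control.

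The arrays and the cells were checked against their labels. Between 21920 and 21989 probes had a value on each array. All 12 stromal markers had probes, with summed intensities between 66854 and 72245, and Vim, the stromal filament protein vimentin, read 18420 or more in every line, while Thy1 stayed at 3.0 or less. Other stromal markers differed between the lines. Pdgfra, a growth factor receptor gene, read 800.6, 166.1 and 127.1 in OP9, OP9-GFP and OP9-DL, 4.82-fold lower in OP9-GFP than in OP9. Col3a1, a collagen gene, read 660.5, 936.4 and 195.9, and Cxcl12, a chemokine gene, 3720.4, 4411.3 and 1997.4, both more than 2-fold lower in OP9-DL than in OP9-GFP. Col1a1, another collagen gene, went the other way, with 269.3, 712.9 and 557.0 in OP9, OP9-GFP and OP9-DL. It was 2.65-fold higher in OP9-GFP and 2.07-fold higher in OP9-DL than in OP9. Of 8 mast cell markers, the summed intensity was 60.5 in OP9, 42.0 in OP9-GFP and 856.0 in OP9-DL, of which Tpsab1 made up 818.9 in OP9-DL, and Kit was blank in OP9-GFP and OP9-DL and read 1.6 in OP9. The 8 measured blood and macrophage markers summed to between 104.3 and 122.3, with Ptprc at 2.8 or less, the 6 endothelial markers to between 30.0 and 38.4, and the 3 epithelial markers to between 44.2 and 53. The part of other cells in the results was not tested. In these bulk samples fewer cells of a kind and less RNA per cell cannot be told apart.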

How the data were processed

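Total RNA from 3 cell lines was amplified, labelled with Cy5 and hybridised to 1 one-colour Toray array each, per the labels. The deposited intensity values are linear, and the authors had scaled them to a median of 20 on each array, as the values show. The sources used here do not name the scanner, the background correction or the reason for blank cells. Values were used as deposited, with log2 taken and no constant added. Of 20775 probes with a value on all 3 arrays, those whose mean log2 reached the 25th percentile (2.62, which is an intensity of 6.13) were compared. Symbols came from the platform's gene table and were updated with GRCm38.p6 (12622 current, 3947 renamed, 62 kept, 6842 probes unnamed). Probes of a gene were averaged. A difference counted at 2-fold or more. No test was possible, and the number of arrays limits the precision.

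The genes and the 9 lists of related genes (179 entries) were chosen with earlier results of these data known. Named were all growth brakes, the highest and lowest gene of each list where past 2-fold, in OP9-DL against OP9-GFP and in OP9-GFP against the parental line, the 3 genes most like each of the 2 growth brakes with the widest range, and neighbours of Cdkn2a. Other named genes were chosen after their values were seen. Alternatives were quantile, 75th percentile and lowess (span 0.3) scaling, other limits on dim probes, a constant of 2, filled blanks, the brightest probe, and a threshold of 1.5-fold or 3-fold. The procedure was tested on simulated data. Python 3.11.15, numpy 2.4.6, pandas 2.3.3, statsmodels 0.14.6 and matplotlib 3.10.9 were used.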

Additional observations from a re-analysis of the deposited data

How the results depend on the processing

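Among 96 log2 differences of the 8 growth brakes recomputed under quantile, 75th percentile or lowess scaling or with a constant of 2 added, 0 changed direction and 95 stayed on the same side of 2-fold. The exception was Mdm2 in OP9-GFP against OP9 under 75th percentile scaling. The other limits on dim probes, filled blanks and the brightest probe cannot change these values, since each gene has 1 probe with a value on all arrays. Of 48 calls at another threshold, 11 differed from those at 2-fold. Counts past the threshold changed by more than 1.5 times as the threshold itself moved. At 3-fold they were 2 genes in OP9-GFP against OP9, 3 in OP9-DL against OP9-GFP and 0 in OP9-DL against OP9. Of all genes 3.69%, 1.90% and 4.47% passed 3-fold, in that order. At 1.5-fold the last comparison had 4, beside 30.2% of all genes. With a limit at the 50th percentile Cdkn1b dropped out, and the medians became -1.03, 1.07 and -0.50 in the same order. Scaling to the 75th percentile moved the median of all genes in OP9-DL against OP9 to 0.13, and that of the growth brakes there to -0.11. Medians that turned sign were those of p53 induced genes in OP9-DL against OP9 (from -0.06 to 0.01 under quantile and 0.07 under 75th percentile scaling) and, under the latter, of p53 regulators there (from -0.11 to 0.01) and in OP9-GFP against OP9 (from -0.05 to 0.01), and of p27 genes in OP9-DL against OP9-GFP (from -0.04 to 0.02). No paired analysis was possible because each line has 1 array. Leaving out a replicate was not possible for the same reason.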

Other observations

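Some further listed genes of the p53 response are named here after their values were seen. Rps27l, a small ribosomal protein gene that p53 induces, read 5837 in OP9, 3163.9 in OP9-GFP and 1553.5 in OP9-DL cells. Trp53inp2, a regulator of autophagy, read 322.9, 122.9 and 61.1, and Cd82, a tetraspanin known as a metastasis suppressor, 170.8, 57.4 and 43.6. All 3 were highest in OP9 and lowest in OP9-DL, as Btg2 was among the growth brakes. Mdm2 and Cdkn1a were close to their OP9 readings in OP9-DL. Zmat3, an RNA-binding p53 target, read 150.8, 76.3 and 154.4, an order and size close to those of Mdm2. Eda2r, a death receptor gene, read 24.0, 21.4 and 47.3, and Apaf1, which assembles the apoptosome, 27.7, 22.2 and 41.8, both highest in OP9-DL as Gadd45a was. Pmaip1, which encodes the death protein Noxa, had a mean below the brightness limit, at 2.9, 2.2 and 6.6.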
